A study of Homo sapiens with 6 samples.

Results

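The spindle assembly checkpoint core was examined as 10 genes of the 16655 in the table, found by their symbols: TTK, BUB1, AURKB, KNL1, BUB3, ZW10, MAD1L1, MAD2L1, BUB1B and CDC20. They were listed for their known function, with earlier results of these data known, and all 10 passed the filter on low counts. The RNA came from HEK-293T cells (human embryonic kidney cells with the large T antigen of SV40) 24 h after lipofection with pEGFP-C1 that expressed GFP alone (GFP, n = 3) or GFP fused to RfA1, a squid reflectin (RfA1, n = 3). All libraries therefore came from transfected cells with GFP. Transfection was transient and each library is a bulk mixture, so transfected and untransfected cells, or fewer cells in mitosis and less RNA per cell, cannot be told apart. The labels do not say that same-group libraries came from separate cultures, and p-values then measure only the spread between these libraries, which may be technical. All 10 of the listed markers of HEK-293 cells, such as VIM, KRT8 and NEFM, were found at 1 TPM (a level scaled by transcript length and to a total of 1000000 per library) or more in all 6 libraries, with a summed level of 954 to 1140 TPM in GFP and 995 to 1201 TPM in RfA1. Of the 5 listed fibroblast markers 4 were in the table, with a summed level of 9.13 to 10.7 TPM in GFP and 8.82 to 10.5 TPM in RfA1, of which COL1A1 held 8.20 TPM or more and DCN at most 0.09 TPM. Of the 6 blood cell markers 4 were in the table, with 4.91 to 8.04 TPM in GFP and 6.84 to 7.58 TPM in RfA1, mostly CD68 (4.18 to 6.69 TPM), whereas PTPRC reached at most 0.03 TPM. Hepatocyte markers (3 of 4 in the table) summed to 1.21 to 1.99 TPM in GFP and 0.66 to 1.73 TPM in RfA1, and endothelial markers (4 of 4) to at most 0.23 and 0.15 TPM.

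The spindle assembly checkpoint delays the separation of sister chromatids until each kinetochore, the protein platform on the centromere, is held by spindle microtubules. At an unattached kinetochore, AURKB helps to recruit the kinase TTK (MPS1), which phosphorylates the scaffold KNL1, and KNL1 then binds BUB3 with BUB1 and BUB1B. MAD1L1 and MAD2L1 are recruited there, and MAD2L1, BUB1B and BUB3 sequester CDC20, the activator of the anaphase-promoting complex, the ubiquitin ligase that destroys securin and cyclin B. Transcripts such as BUB1, TTK, AURKB and CDC20 are known to peak in G2 and mitosis, so that their level in bulk RNA also follows the share of dividing cells.

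Promoter windows of 7 of the 10 genes were found in RefSeq (GRCh38.p14). The 2 windows of AURKB are not placed at the annotated start of the gene and were left out, so that 6 genes remained. The 3 shown belong to CDC20 and MAD2L1, near the lower and upper ends of the fold changes, and to BUB1B, whose fold change was closest to 0. Each is the 250 bases before the start of the gene, 5′ to 3′ on the strand of the gene. Capitals mark the letters TTTGAA of the CHR (cell cycle genes homology region) and the letters CCAAT, in either direction (TTCAAA and ATTGG on the other strand). No site was tested for binding.
CDC20, chr1:43358731-43358980, plus strand: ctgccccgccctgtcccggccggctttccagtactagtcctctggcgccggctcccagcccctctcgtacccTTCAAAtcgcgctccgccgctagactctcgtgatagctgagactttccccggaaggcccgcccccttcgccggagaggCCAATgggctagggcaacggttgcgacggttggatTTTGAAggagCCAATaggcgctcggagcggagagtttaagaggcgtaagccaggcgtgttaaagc
MAD2L1, chr4:120066849-120067098, minus strand: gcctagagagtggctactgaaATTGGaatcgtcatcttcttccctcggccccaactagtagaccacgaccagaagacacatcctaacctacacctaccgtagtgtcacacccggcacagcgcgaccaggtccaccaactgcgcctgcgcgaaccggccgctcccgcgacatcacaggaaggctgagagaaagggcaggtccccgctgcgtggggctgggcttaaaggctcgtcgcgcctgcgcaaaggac
BUB1B, chr15:40160819-40161068, plus strand: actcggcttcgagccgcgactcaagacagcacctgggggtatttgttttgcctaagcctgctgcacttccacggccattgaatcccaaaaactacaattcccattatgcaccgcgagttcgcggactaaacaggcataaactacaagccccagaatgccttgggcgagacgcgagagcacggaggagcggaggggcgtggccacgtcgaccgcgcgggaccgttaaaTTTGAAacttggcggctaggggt

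The CHR is an element through which many late cell cycle promoters are known to be controlled, and CCAAT boxes are bound by NF-Y. TTTGAA was found in 3 of the 6 promoters, those of CDC20, BUB1B and ZW10, against 13.3% of all 35116 windows of the same length, which belong to 27305 genes. In CDC20 the letters start 178 and 65 bases before the gene and in BUB1B 23 bases before it. CCAAT was found in 4 of the 6, those of CDC20, BUB1, ZW10 and MAD2L1, against 32% of all windows. CDC20 holds it 100 and 55 bases before its start, and MAD2L1 229 bases before its start. These are matches of letters in a fixed window, and the genes with and without them were not compared. The 6 windows were kept because they lie at the annotated start of the gene. The 35116 windows were not selected in this way, so the shares are not strictly alike.

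The levels of the 10 genes are comparable with each other only in TPM. CDC20 was the most abundant, with 351 ± 5.61 TPM (SD, n = 3) in GFP cells, followed by AURKB with 257 ± 9.49 TPM and BUB3 with 137 ± 9.65 TPM. These 3 did not overlap with each other in any library and stood at the percentile 92.9 of the tested genes or higher. BUB1 (45.5 ± 5.06 TPM), MAD1L1 (42.4 ± 4.64) and BUB1B (37.1 ± 2.97) formed a middle group in GFP cells in which neighbours overlapped between libraries. MAD2L1 (23.5 ± 3.46 TPM), TTK (22.4 ± 2.26) and ZW10 (21.2 ± 1.53) were not separated from each other either. KNL1, which encodes the largest of these proteins, was the lowest at 4.04 ± 0.44 TPM, and at the percentile 23.1 of the tested genes. In RfA1 cells the order was the same except that BUB1B (39.7 ± 3.27 TPM) stood before MAD1L1 (37.0 ± 6.02 TPM), a difference smaller than their SDs.

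With RfA1, the log2 fold change was positive in 7 of the 10 genes and negative in 3, and no gene passed the threshold (edgeR, quasi-likelihood, adjusted p of 0.05, 0 of 10, against 0.0769% of all 13002 tested genes). The largest positive values were those of MAD2L1, TTK and KNL1 and the largest negative values those of MAD1L1 and CDC20. With p unadjusted there were 3 of the 10 genes under 0.05, MAD2L1, TTK and CDC20, against 13.9% of all tested genes. DESeq2 also gave 0 of the 10 past the adjusted p, against 0.254% of all tested genes. At its unadjusted p there were 3 of the 10, against 1298 of the 13002 tested genes. The median log2 fold change of the 10 genes was 0.13, against -0.0024 for all tested genes, of which 49.5% had a positive value. It was 0.06 without RfA1 replicate 3 and 0.22 without RfA1 replicate 2. Expression per library is given below as CPM, counts scaled to a TMM-normalized library size of 1000000, and the genes are taken in the order of their roles.

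**Figure D1:**
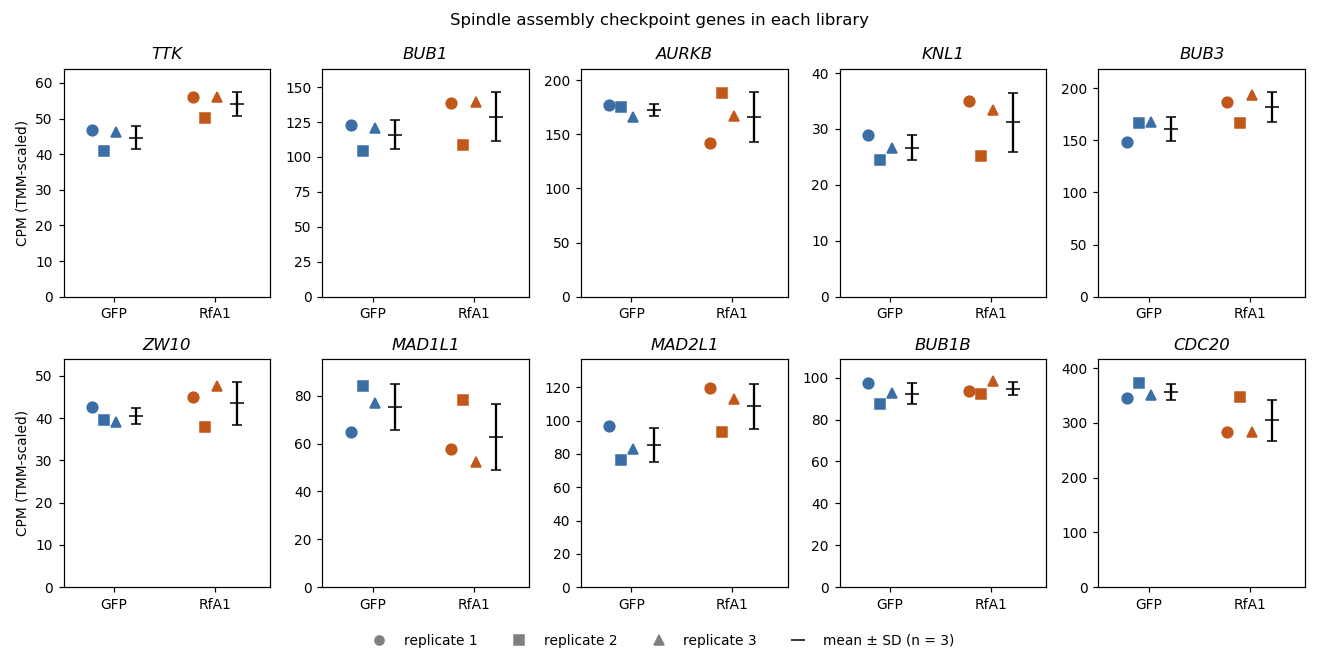
Expression of the 10 checkpoint genes in CPM (vertical axes, from 0) in the 3 GFP (blue) and 3 RfA1 (orange) libraries, with the replicate number as the marker shape and the mean ± SD in black. TTK is the only one of the 10 in which all RfA1 libraries (50.2 to 56.0 CPM) lie above all GFP libraries (40.8 to 46.8 CPM), and in most panels RfA1 replicate 2 (orange square) lies nearer to the GFP points than RfA1 replicates 1 and 3.

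Among the kinases, TTK, which starts checkpoint signalling by phosphorylating KNL1, was found at 46.8, 40.8 and 46.3 CPM in GFP replicates 1, 2 and 3 and at 55.9, 50.2 and 56.0 CPM in RfA1 replicates 1, 2 and 3. All 3 RfA1 libraries were above all 3 GFP libraries, as for 9.86% of all tested genes. Its log2 fold change was 0.28 (standard error 0.093) and did not pass (edgeR adjusted p = 0.278). BUB1, which marks the centromere by phosphorylating histone H2A, was at 123, 104 and 121 CPM in GFP and at 139, 109 and 139 CPM in RfA1 libraries. RfA1 replicate 2 lay between the GFP libraries, and the log2 fold change was 0.15 (standard error 0.11, edgeR adjusted p = 0.525). AURKB, the kinase of the chromosomal passenger complex that releases wrongly attached microtubules, was at 177, 175 and 166 CPM in GFP and at 142, 188 and 167 CPM in RfA1 libraries. The RfA1 libraries thus held both its lowest and its highest value, and the log2 fold change of -0.06 was smaller than its standard error of 0.10 (edgeR adjusted p = 0.809).

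Among the kinetochore platform genes, KNL1, whose repeated motifs bind BUB3 once phosphorylated, was at 28.9, 24.4 and 26.6 CPM in GFP and at 35.0, 25.1 and 33.4 CPM in RfA1 libraries. RfA1 replicates 1 and 3 were above all GFP libraries and replicate 2 was not, and the log2 fold change was 0.23 (standard error 0.13, edgeR adjusted p = 0.436). BUB3, the adaptor that holds BUB1 and BUB1B on KNL1, was at 148, 167 and 168 CPM in GFP and at 187, 166 and 194 CPM in RfA1 libraries. It showed the same arrangement, and its log2 fold change was 0.18 (standard error 0.089, edgeR adjusted p = 0.387). ZW10, a subunit of the RZZ complex, which brings MAD1L1 and dynein to the kinetochore, was at 42.6, 39.5 and 39.2 CPM in GFP and at 44.9, 37.9 and 47.7 CPM in RfA1 libraries. Its lowest value was that of RfA1 replicate 2 and its log2 fold change was 0.11 (standard error 0.10, edgeR adjusted p = 0.635), between 0.03 and 0.20 when 1 library was left out.

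Among the genes that form the inhibitor, MAD2L1, the protein that closes around CDC20, had the largest log2 fold change of the 10 genes. It was at 96.8, 76.5 and 82.7 CPM in GFP and at 119, 93.2 and 113 CPM in RfA1 libraries. The groups overlapped, because RfA1 replicate 2 was below GFP replicate 1. The log2 fold change was 0.35 (standard error 0.11, edgeR adjusted p = 0.262), positive in all 18 alternatives with values from 0.25 to 0.45 and an adjusted p from 0.0032 to 0.748. MAD1L1, the kinetochore receptor that converts MAD2L1 into its active form, went in the other direction, with 64.7, 83.9 and 76.9 CPM in GFP and 57.8, 78.1 and 52.3 CPM in RfA1 libraries. RfA1 replicate 2 was within the range of the GFP libraries, and the log2 fold change of -0.26 did not pass either (standard error 0.14, edgeR adjusted p = 0.419). BUB1B (BUBR1), the largest subunit of the inhibitor, was at 97.3, 87.2 and 92.7 CPM in GFP and at 93.7, 92.2 and 98.5 CPM in RfA1 libraries, the least separated of the 3. Its log2 fold change was 0.04 (standard error 0.079, edgeR adjusted p = 0.846), and negative after the correction for GC content described below (-0.03).

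CDC20, the target of the checkpoint, was at 346, 373 and 351 CPM in GFP and at 283, 348 and 284 CPM in RfA1 libraries. In CPM the groups overlapped by 1 library, since RfA1 replicate 2 was above GFP replicate 1, and in TPM they did not, with 347 to 357 TPM in GFP and 298 to 335 TPM in RfA1 libraries. The log2 fold change was -0.23 (standard error 0.094, edgeR adjusted p = 0.325). On the TPM scale 1 of the 10 genes, TTK, lay wholly above and 1, CDC20, wholly below the GFP libraries, against 9.29% and 6.15% of all tested genes. In CPM none of the 10 genes lay wholly below, against 8.01% of all tested genes.

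Libraries with the same replicate number were also compared in pairs. In CPM, 4 of the 10 genes (TTK, BUB1, KNL1 and MAD2L1) were higher with RfA1 in 3 of 3 pairs, against 22.9% of all tested genes, and 2 (MAD1L1 and CDC20) were lower in 3 of 3, against 21.4%. MAD2L1 was higher by 0.30, 0.29 and 0.45 on the log2 scale in pairs 1, 2 and 3, and TTK by 0.26, 0.30 and 0.27. These 2 genes differed by a similar amount in pair 2 as in pair 1. For KNL1 the differences were 0.27, 0.04 and 0.33 and for BUB1 0.17, 0.06 and 0.20, so that pair 2 contributed little. The log2 differences of CDC20 were -0.29, -0.10 and -0.31 and those of MAD1L1 -0.16, -0.10 and -0.56. BUB3 and ZW10 were higher in pairs 1 and 3 but not in pair 2 (-0.004 and -0.06 on the log2 scale), and AURKB and BUB1B were higher in pairs 2 and 3 but not in pair 1 (-0.32 and -0.05). In TPM BUB1B was higher in 3 of 3 pairs, and the counts of pairs were the same as in CPM for the other 9 genes. In pair 1 BUB1B was at 39.91 TPM in GFP and 40.25 TPM in RfA1. The median TPM of all tested genes also rose in that pair, from 14.6 to 15.6. The share of all tested genes was not counted for pairs in TPM. Same-numbered libraries are not known to have been handled together.

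RfA1 replicate 2 stood apart from the other RfA1 libraries in all genes and in these. The total counts per library ranged from 10272306 to 11566284. The first principal component of log2 CPM held 44.6% of the variance, and its loadings followed the GC content of the transcripts across genes (Spearman's rho 0.74, genes not being independent replicates). The scores of RfA1 replicates 1 and 3 were -16.5 and -22.0, that of RfA1 replicate 2 was 10.2, and those of GFP replicates 1, 2 and 3 were -2.18, 18.2 and 12.3. GFP replicate 1 thus also lay apart from GFP replicates 2 and 3 on this component. Of the 10 genes, 7 have transcripts with less than 50% GC and 3 (AURKB, CDC20 and MAD1L1) with more, a split made after the values were seen. Relative to the GFP libraries, the mean log2 CPM of the 7 was 0.27, 0.01 and 0.28 in RfA1 replicates 1, 2 and 3, and that of the 3 was -0.33, 0.05 and -0.30. Among the GFP libraries the 7 ranged from -0.09 in replicate 2 to 0.07 in replicate 1, and the 3 from -0.07 in replicate 1 to 0.08 in replicate 2. In RfA1 replicates 1 and 3 the groups thus lay on opposite sides of the GFP mean, and in RfA1 replicate 2 both were near it.

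**Figure D2:**
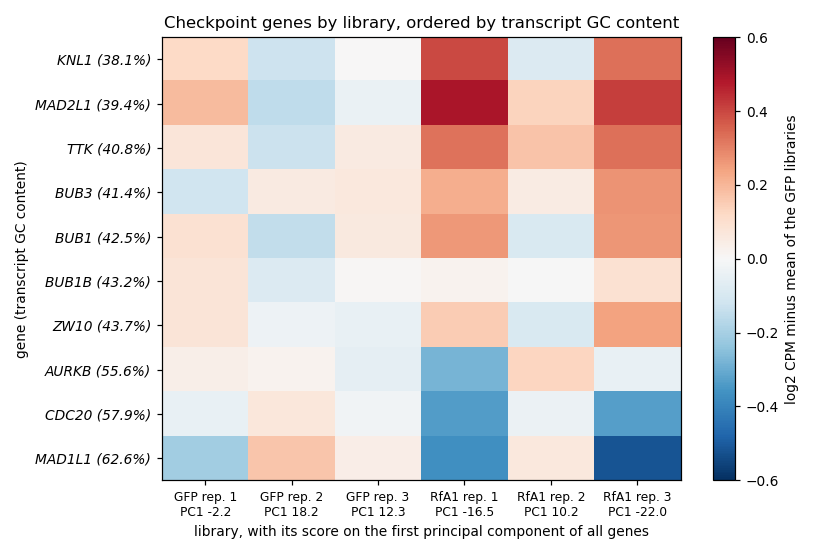
Log2 CPM of each checkpoint gene (rows, from the lowest to the highest transcript GC content) in each library (columns, with the score on the first principal component of all genes), minus the mean of the 3 GFP libraries (red above, blue below). Apart from BUB1B, the rows under 50% GC are red and AURKB, CDC20 and MAD1L1 blue in RfA1 replicates 1 and 3 (scores -16.5 and -22.0), with AURKB pale in replicate 3, whereas RfA1 replicate 2 (10.2) is paler in nearly all rows.

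Across the 10 genes, the log2 fold change followed the GC content of the transcript with a Pearson's r of -0.944 and a Spearman's rho of -0.952 (n = 10 genes, all measured in the same 6 libraries and so not independent). Over all tested genes the rho was -0.539. The tested genes were divided by GC content into 6 ranges, 5 points wide between 40% and 60%. Genes with less than 40% GC had a median log2 fold change of 0.12 and genes with 60% or more of -0.17. MAD2L1 (39.4% GC) was 0.23 above the median of the tested genes in its GC range, TTK (40.8%) 0.19 above and KNL1 (38.1%) 0.11 above, on the log2 scale. CDC20 (57.9% GC) differed from the median of its range by -0.13 and MAD1L1 (62.6%) by -0.09, and the other 5 genes by -0.05 to 0.09. The 10 genes varied with GC content in the same direction as the other genes, and MAD2L1 and TTK stood farthest from the median of their range.

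**Figure D3:**
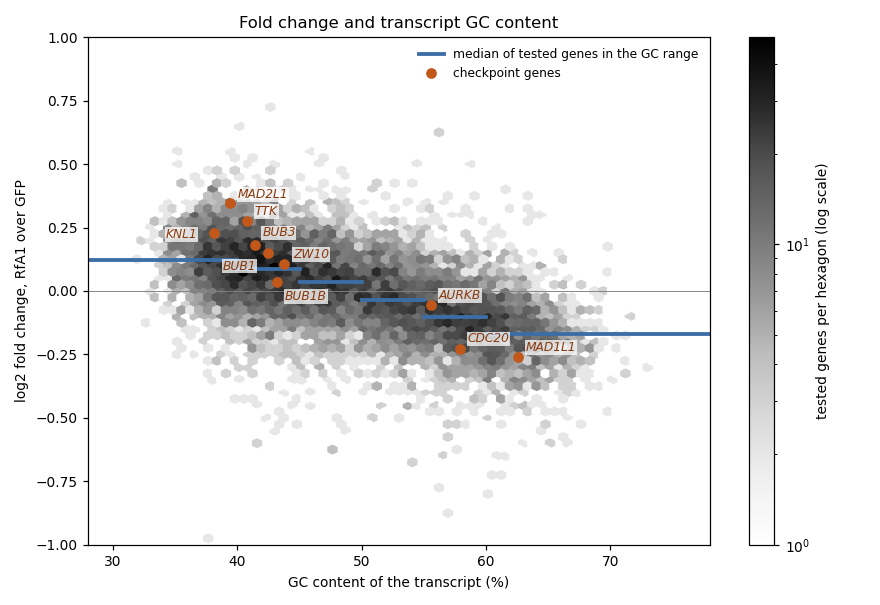
Log2 fold change (RfA1 over GFP, vertical axis, shown from -1 to 1) against the GC content of the transcript in percent (horizontal axis) for the 10 checkpoint genes (orange) and for all tested genes with a GC content (grey hexagons, darker with more genes on a log scale), with the median of the tested genes in each GC range (blue lines). The medians go from 0.12 below 40% GC to -0.17 at 60% GC or more, and the checkpoint genes go from 0.35 (MAD2L1) to -0.26 (MAD1L1) in the same direction.

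Entering the GC trend of each library as an offset in the same edgeR fit moved the median of the 10 genes from 0.13 to 0.06. The trend was fitted without regard to group, so a group difference that follows GC content is removed with it. A gene that runs against the trend can move away from 0. Over all tested genes the rho of log2 fold change and GC content was then -0.022, whereas across the 10 genes it was still -0.915 (Pearson's r -0.805), over a narrower range of fold changes. Again 0 of the 10 genes passed the adjusted p, against 1.48% of all tested genes. At an unadjusted p of 0.05 there were 3 of the 10, against 2075 of the 13002 tested genes. The log2 fold change of MAD2L1 was then 0.25 (standard error 0.066, edgeR adjusted p = 0.0666) and that of TTK 0.19 (standard error 0.068, edgeR adjusted p = 0.176). CDC20 and MAD1L1 had log2 fold changes of -0.12 and -0.10 (edgeR adjusted p = 0.31 and 0.504). The direction was kept in 8 of the 10 genes and turned in AURKB (0.02) and BUB1B (-0.03), both smaller than their standard errors.

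Without RfA1 replicate 2, 7 of the 10 genes passed the adjusted p of 0.05 in edgeR's test, against 20.1% of all tested genes. MAD2L1 (log2 fold change 0.45, adjusted p = 0.0032), KNL1 (0.36, 0.0182), TTK (0.33, 0.0161), BUB1 (0.26, 0.0272) and BUB3 (0.24, 0.029) were higher, and MAD1L1 (-0.45, 0.00601) and CDC20 (-0.33, 0.00423) lower. ZW10, AURKB and BUB1B did not pass in this fit. Its RfA1 libraries, replicates 1 and 3, are those with the most negative scores on the GC-related component. RfA1 replicate 2 scored 10.2 there, nearer to GFP replicates 2 and 3. Leaving it out therefore widens the group difference and narrows the RfA1 spread on that component. Each library was left out in turn, not for its quality. With the GC correction added, a fit chosen after seeing the data, MAD2L1 was the 1 gene of the 10 that passed (log2 fold change 0.28, edgeR adjusted p = 0.00874), against 7.4% of all tested genes. Leaving out any of the other 5 libraries gave 0 of the 10 genes, against 0% to 0.0305% of all tested genes.

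**Figure D4:**
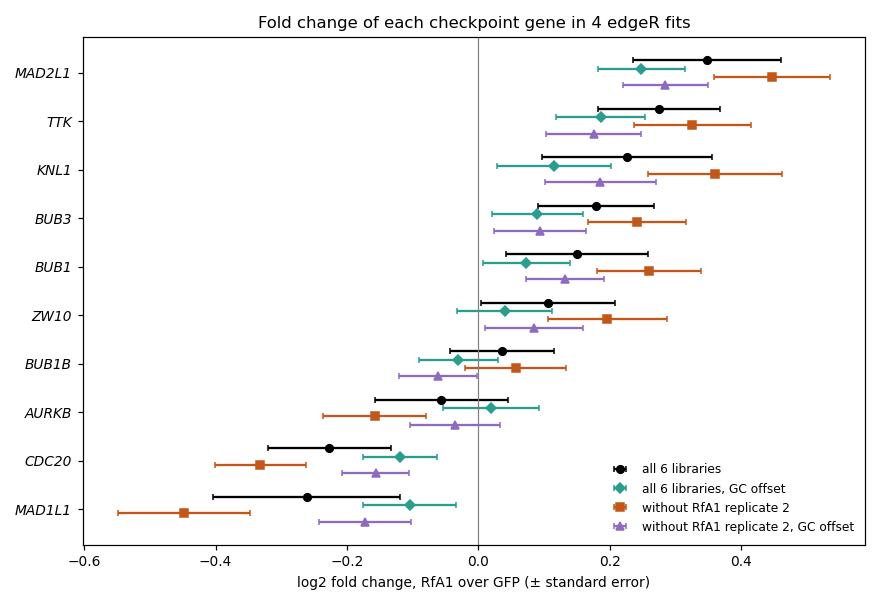
Log2 fold change (RfA1 over GFP, horizontal axis) with its standard error for each checkpoint gene in 4 edgeR fits, with all 6 libraries (black), with the GC offset (green), without RfA1 replicate 2 (orange) and without it and with the GC offset (purple). For MAD2L1 the 4 values are 0.35, 0.25, 0.45 and 0.28, all above 0, and for CDC20 they are -0.23, -0.12, -0.33 and -0.16, all below 0, whereas AURKB and BUB1B change side.

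The partners of the checkpoint were described by 6 lists of 94 genes in all, each gene of which was tested. None was past the adjusted threshold with edgeR (0 of 94). At an unadjusted p of 0.05 there were 10 higher and 4 lower, against 7.3% higher and 6.64% lower of all tested genes. With both directions together, the share of the 94 genes was near the 13.9% of all tested genes. By direction, the share was above that of all tested genes for higher and below it for lower. DESeq2 likewise gave 0 past the adjusted p. The log2 fold change was above 0 in 64 of them, against 49.5% of all tested genes, with a median of 0.07 and a median transcript GC content of 44.5% (48.7% over the tested genes). The GC correction left a median of 0.03, and without RfA1 replicate 2 there were 13 higher and 10 lower past the adjusted p, against 8.56% and 11.5% of all tested genes in that fit. In CPM with all 6 libraries, 17 of the 94 genes lay wholly above the GFP libraries and 4 wholly below, against 9.86% and 8.01% of all tested genes. Of the genes named below, ZWILCH, CDK1, PPP2R5C, PPP1CC, FBXO5 and CDKN1A lay wholly above and LIN37 wholly below.

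In the list of the outer kinetochore and the RZZ complex, the log2 fold change was above 0 in 15 of 17 genes, against 49.5% of all tested genes (median 0.09, and -0.0037 after the GC correction), and 1 had an unadjusted p under 0.05. This was ZWILCH, which forms the RZZ complex with ZW10, at 39.0 ± 2.08 CPM (SD, n = 3) in GFP and 47.2 ± 3.83 CPM in RfA1 cells (log2 fold change 0.27, edgeR adjusted p = 0.278; 0.16 after the GC correction), and all RfA1 libraries lay above the GFP libraries. For MIS12, of the complex that anchors KNL1, the log2 fold change was 0.24 (edgeR adjusted p = 0.425) and 0.16 after the GC correction. Of the 11 passenger complex, centromere protection and mitotic kinase genes, the smallest p belonged to CDK1, the kinase that drives mitotic entry (log2 fold change 0.20, edgeR adjusted p = 0.313), and INCENP, the scaffold of AURKB (-0.21, edgeR adjusted p = 0.328). The transcripts of the first hold 37.0% GC and those of the second 59.6%, and after the GC correction the log2 fold changes were 0.09 and -0.08.

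Of the 14 genes for silencing the checkpoint, 4 were higher and 0 lower at an unadjusted p of 0.05, against 7.3% and 6.64% of all tested genes. PPP2R5C, a regulatory subunit of the phosphatase PP2A, went from 101 ± 1.60 to 120.0 ± 6.80 CPM (SD, n = 3 each), a log2 fold change of 0.25 (edgeR adjusted p = 0.254). PPP1CC, a catalytic subunit of the phosphatase PP1, which KNL1 recruits, went from 229 ± 15.05 to 272 ± 18.6 CPM, also 0.25 on the log2 scale (adjusted p = 0.278). In both, all RfA1 libraries were above all GFP libraries, as for 9.86% of all tested genes. The GC correction left 0.16 and 0.18 on the log2 scale. Of the 17 genes of the anaphase-promoting complex and its regulators, FBXO5 (EMI1), an inhibitor of the complex, had a log2 fold change of 0.25 and ANAPC2, its cullin subunit, of -0.22 (edgeR adjusted p = 0.278 and 0.349), and 0.12 and -0.05 after the GC correction. Among 10 targets of the complex none had an unadjusted p under 0.05, and CCNA2 (cyclin A2) and TK1 (thymidine kinase) had the smallest p, with log2 fold changes of 0.17 and -0.17 (adjusted p = 0.418 and 0.429), and 0.09 and -0.0008 after the GC correction.

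Of the 25 genes that control the transcription of mitotic genes, 3 were higher and 2 lower at an unadjusted p of 0.05, against the same 7.3% and 6.64%. CDKN1A (p21), the cyclin-dependent kinase inhibitor through which p53 is known to repress many mitotic genes, was at 21.8, 26.9 and 28.3 CPM in GFP and at 33.5, 32.7 and 33.5 CPM in RfA1 libraries. All RfA1 libraries were above all GFP libraries, RfA1 replicate 2 included, as for 9.86% of all tested genes. The log2 fold change was 0.37 (standard error 0.11, edgeR adjusted p = 0.25). After the GC correction it passed, with 0.49 (adjusted p = 0.00988), as did RB1, the retinoblastoma protein, with -0.30 (adjusted p = 0.0488; -0.18 and 0.449 before it). These were the 2 of the 94 genes past the adjusted p in that fit, near the 1.48% of all tested genes. RB1 was named after its values were seen. Its transcript holds 37.3% GC and that of CDKN1A 58.05%. In the GC ranges of these 2 genes the median log2 fold changes of the tested genes were 0.12 and -0.10. Both genes thus ran against the GC trend, and the correction moved them away from 0. LIN37, a subunit of the DREAM complex, which binds the CHR, went from 16.9 ± 0.999 to 12.6 ± 1.06 CPM (SD, n = 3 each). It lay below the GFP libraries in all RfA1 libraries, as for 8.01% of all tested genes. The log2 fold change was -0.43 (edgeR adjusted p = 0.221), and -0.30 after the GC correction. Whether p53 or the DREAM complex acts in these cells, which carry the large T antigen, was not tested.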

How the data were processed

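The authors deposited a table of 16655 genes with, for each of the 6 libraries, estimated counts without normalization (7.39% to 8.02% of the values not whole), TPM scaled by the authors to 1000000 per library, and FPKM, which were not used here. The averages that the authors deposited in each unit were not used. The submitters' processing notes name HISAT and GRCh38.p13; the counting tool and the strand setting are not given in the sources used here.

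Estimated counts were rounded, filtered with filterByExpr (minimum count 10, minimum total 15), which left 13002 genes, and scaled with TMM factors. The test was the robust quasi-likelihood F-test of edgeR 4.0.16 (R 4.3.3), two-sided, with Benjamini-Hochberg adjustment over all tested genes, and a threshold of 0.05. The biological coefficient of variation was 8.83%. The counting error at 10272306 to 11566284 counts per library enters through the counts, and 264 to 4234 counts per library stood behind the 10 genes. The members and the lists were chosen with earlier results of these data known. All 10 members were named, and from each related list the genes past the threshold and the 2 with the smallest p. Transcript GC content was taken from the longest GENCODE release 29 transcript of each gene (99.3% of the tested genes), as a spline with 5 degrees of freedom in each library. Alternatives were DESeq2 1.42.0, upper-quartile or no normalization beyond library size, other filters, the replicate number as a block, the GC correction, limma 3.58.1 on log2(TPM + 1) or log2(TPM + 0.1), and each library left out. The scripts were tested on simulated data. BUB1B shares 457 exon bases with the readthrough gene BUB1B-PAK6, and processed pseudogenes of BUB1, BUB3 and CDC20 are annotated, so reads between these copies were assigned by the authors' counting. Figures were drawn with matplotlib 3.10.9.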

Additional observations from a re-analysis of the deposited data

How the results depend on the processing

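The 10 members kept 0 calls under every normalization, filter and TPM setting, against 0.018% to 0.12% of all tested genes. Under all alternatives 6 to 8 of the 10 had a positive log2 fold change, against 48.35% to 60.59% of all tested genes. The highest shares, 57.3% to 60.59%, were those on the TPM scale, where 7 of the 10 were positive. The direction turned in AURKB with the GC correction (0.020), with it and the replicate block (0.017) and without RfA1 replicate 1 (0.042, in a range from -0.158 to 0.042 with 1 library left out). It turned in BUB1B with the GC correction (-0.030), with it and the block (-0.031), without GFP replicate 2 (-0.0029, in a range up to 0.073 with 1 library left out) and with the GC correction without RfA1 replicate 2 (-0.062), and in TK1 in the last of these (0.027). Of 396 values of single genes under an alternative, 28 newly passed and 8 turned. Most of the 28 were in the fit without RfA1 replicate 2, and all the others in fits with the replicate block or the GC correction.

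All genes past the adjusted p numbered 10 (8 higher), 33 with DESeq2 (17 higher), 6 with upper-quartile normalization (4 higher), 8 by library size only (6 higher), 20 without a filter (12 higher), 192 with the GC correction (140 higher), and 4, 4 and 3 on log2(TPM + 1), log2(TPM + 0.1) and log2(TPM + 1) without a filter (4, 4 and 2 higher). Leaving out 1 library gave 0 to 2636 genes (0 without GFP replicates 2 or 3, 1 without GFP replicate 1, 2 without RfA1 replicate 1, 4 without RfA1 replicate 3 and 2636, 1124 of them higher, without RfA1 replicate 2), 0 to 7 members and 0 to 23 related genes. With the GC correction 2 related genes passed, and with it and without RfA1 replicate 2 there were 971 genes (516 higher), 1 member and 8 related genes. The cause was not tested beyond these fits.

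The correlations of same-numbered libraries, as deviations from the means of their groups, were 0.166, 0.321 and -0.143, and RfA1 replicate 3 correlated best with GFP replicate 1 (0.348). Deviations from a mean of 3 libraries are not independent. These correlations therefore cannot show whether same-numbered libraries were handled together. With the replicate block 625 genes passed (4.81%, 309 higher), with 2 members, MAD2L1 (edgeR adjusted p = 0.0107) and TTK (0.0497), and 4 related genes. With the block and the GC correction there were 470 genes (3.61%, 305 higher), 1 member, MAD2L1 (0.0149), and 3 related genes.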

Other observations

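The ratio of CDC20 to MAD2L1, the target and its inhibitor, was 12.8, 17.5 and 15.2 in TPM in GFP replicates 1, 2 and 3 and 8.48, 13.35 and 8.96 in RfA1 replicates 1, 2 and 3, with an overlap between GFP replicate 1 and RfA1 replicate 2. The ratio of MAD1L1 to MAD2L1, which form a complex, was 1.36, 2.25 and 1.93 in GFP and 0.99, 1.75 and 0.965 in RfA1 libraries, with the same overlap. Both ratios set a transcript with over 50% GC against MAD2L1 with 39.4%. The ratio of BUB1 to BUB1B, which differ little in GC content (42.5% and 43.2%), was 1.22 ± 0.051 (SD, n = 3) in GFP and 1.32 ± 0.15 in RfA1 cells. These ratios were chosen after the data were seen and were not tested. The readthrough gene BUB1B-PAK6 had 0 to 20 estimated counts per library, against 968 to 1082 for BUB1B.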
